A study of Mus musculus with 8 samples.

Results

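The genes described here are 10 components of the triad, the contact between a transverse tubule and the sarcoplasmic reticulum where a muscle fibre turns an action potential into calcium release. They were chosen by symbol: the release channels Ryr1 and Ryr3, the voltage sensor genes Cacna1s, Cacnb1, Cacng1 and Stac3, the junction genes Jph1 and Jph2, and the luminal genes Trdn and Casq1. Each of the 10 symbols matched 1 of the 54091 gene rows, and all 10 were among the 13141 genes whose mean normalized count over the 8 libraries was at least 10. RNA-seq libraries came from white quadriceps, in which fast glycolytic fibres prevail, taken in the morning after a 14 h fast from male mice 11 to 14 weeks old. In the Acot2 muscle knockout (4 mice, libraries 5 to 8) the gene had been removed with CKM Cre, in which the muscle creatine kinase promoter drives Cre recombinase in striated muscle fibres, so that other cells of the tissue would keep it. The floxed control (4 mice, libraries 1 to 4) was labelled Loxp/Loxp, with no Cre. Mice with Cre alone were not analysed here, so Cre and the loss of Acot2 cannot be told apart. Acot2 itself encodes an enzyme of the mitochondrial matrix that hydrolyses long-chain acyl-CoA, and the series title ties it to fatty acid oxidation in glycolytic muscle.

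In skeletal muscle the L-type calcium channel of the transverse tubule, whose pore-forming subunit is the product of Cacna1s, senses voltage and opens the ryanodine receptor RyR1 by direct contact. Calcium then leaves the terminal cisterna, where calsequestrin buffers it and triadin holds calsequestrin close to the channel. Junctophilins tie the 2 membranes together, and STAC3 couples the voltage sensor to the release channel.

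Reads on genes ranged from 28659601 to 40977848 per library. Normalized counts are the authors' counts divided by a size factor for each library. Each difference is the knockout mean minus the floxed control mean of log2(normalized count + 1), with the standard error (SE) of a limma fit over all 13141 genes. Acot2 had 413, 312, 600 and 543 normalized counts in knockouts 5 to 8, against 1675, 3927, 2492 and 1530 in floxed controls 1 to 4, with no overlap (exact two-sided permutation p = 0.0286, the smallest that 4 against 4 allows). In the limma fit its difference was -2.30 (adjusted p = 0.0870), so Acot2 itself did not pass an adjusted p of 0.05. The fast glycolytic myosin gene Myh4 had 1397870 to 2597333 normalized counts in knockouts and 2093810 to 2917699 in floxed controls, while the slow myosin gene Myh7 had 13.3 to 303 and 12.2 to 83.6, so the labelled tissue carried its defining marker. Knockout 7, 1 of the 3 libraries in which Ryr1 was low, stood apart in these markers, with Myh4 at 59.3% of the floxed control mean. Its count of Myh2, the fast oxidative myosin gene, was 59055, against 4005 to 7087 in the other knockouts and 4421 to 18567 in floxed controls. Without knockout 7 the Ryr1 difference described below was -0.45 (unadjusted p = 0.0677). Titin (Ttn), the longest muscle transcript, took 13.9%, 8.67%, 8.34% and 9.22% of normalized counts in knockouts 5 to 8, against 12.8%, 11.8%, 12.2% and 14.9% in floxed controls 1 to 4. Knockout 5 thus lay with the floxed controls and the other 3 knockouts below them. Of the 8 endothelial markers 7 had higher values in the knockout, with sums of 8960 to 10521 in knockouts and 7648 to 8845 in floxed controls. All 7 macrophage markers had higher values, with sums of 1975 to 3635 and 1206 to 2165, as did all 6 smooth muscle and pericyte markers, at 15021 to 17020 and 11665 to 15024. Higher values were also found for 5 of 5 Schwann cell, 3 of 3 blood, 4 of 6 fibroblast and 2 of 3 satellite cell markers. For adipocyte markers it was 2 of 4, for tendon markers 0 of 5, and over all 13141 tested genes 6654. No marker gene passed an adjusted p of 0.05 (limma), none was at 0 in every library, and their part in the values of the triad genes was not tested. In bulk tissue, fewer cells of a type and less RNA per cell cannot be told apart.

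Among the 10 triad genes, 0 passed a limma adjusted p of 0.05, as did 0 of all 13141 tested genes (0%), Acot2 included. At an unadjusted p under 0.05 there was 1 of 10, Ryr1, which was lower in the knockout; over all tested genes 6.16% reached that level and 3.7% did so with a lower value. Fitting the recovered reads with voom also gave 0 adjusted and 1 unadjusted, with 5.75% of all tested genes at the unadjusted level. Groups that did not overlap were found for 0 of the 10 members, against 2.75% of all tested genes (1.13% higher and 1.62% lower in the knockout). By sign, 7 members had lower and 3 had higher means on the log2 scale in the knockout, with a median difference of -0.083, against 0.0031 over all tested genes. The plot of normalized counts by library shows the values behind these counts.

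**Figure D1:**
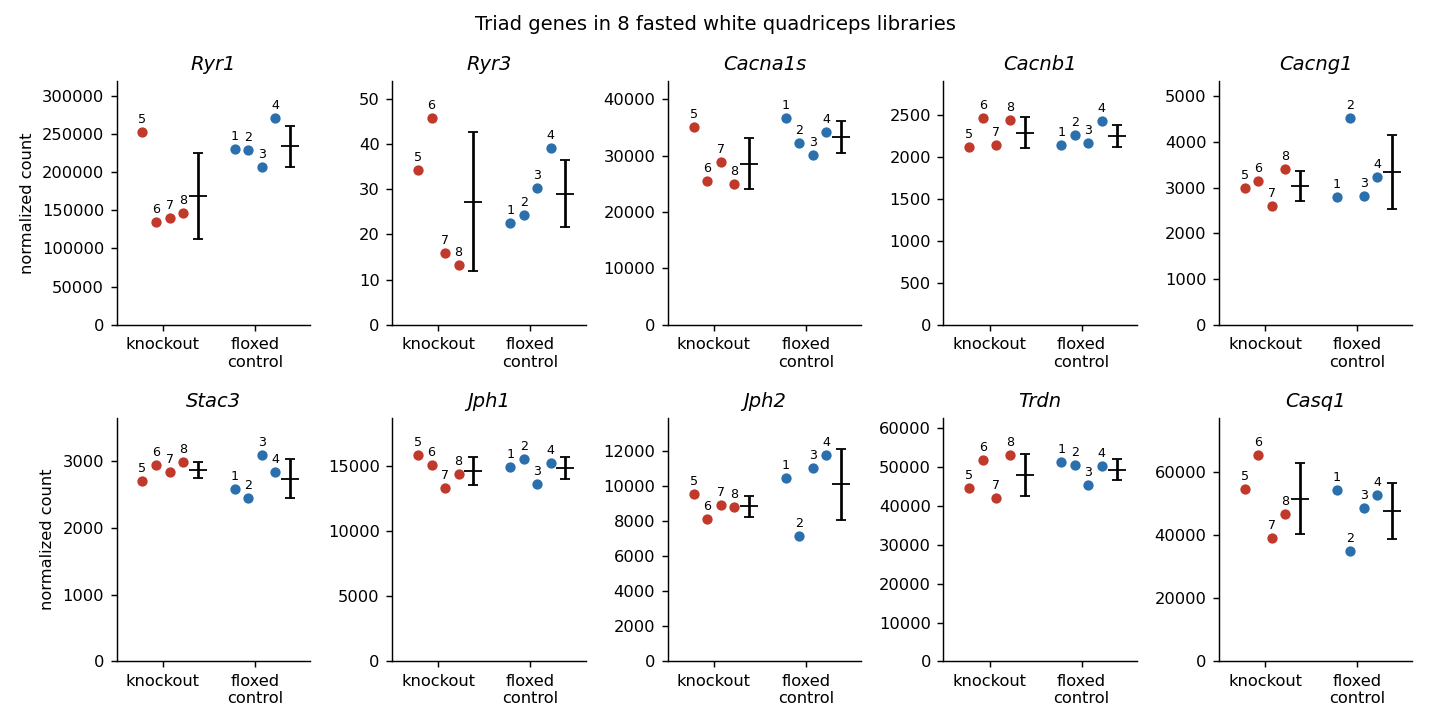
Normalized counts (y axis, linear from 0) of the 10 triad genes in 4 Acot2 muscle knockout libraries (red, 5 to 8) and 4 floxed control libraries (blue, 1 to 4); numbers name the library, and the black bar beside each group is its mean with 1 SD. Ryr1 lies between 134775 and 146109 in knockouts 6, 7 and 8 and at 252337 in knockout 5, inside the floxed control range.

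Of the release channels, Ryr1 had the largest difference of the 10 genes. Ryr1 (gene ID 20190), the ryanodine receptor of skeletal muscle, is transcribed from the minus strand of chromosome 7 (GRCm38, 29003344 to 29125179), and its longest annotated transcript has 106 exons and 15.4 kb. It had 252337, 134775, 139199 and 146109 normalized counts in knockouts 5 to 8, against 229414, 229287, 206144 and 270374 in floxed controls 1 to 4. Knockouts 6, 7 and 8 were below every floxed control, whereas knockout 5 was above 3 of the 4. The mean was 168105 ± 56348 (SD, n = 4) in knockouts and 233805 ± 26721 (SD, n = 4) in floxed controls, so the knockout mean was 71.9% of the control mean. The difference was -0.52 (SE 0.208, 95% interval from -0.98 to -0.062, unadjusted p = 0.0296), and the limma adjusted p was 0.746, ranging from 0.0964 to 0.992 over the other settings. Without knockout 5 the difference was -0.73 (adjusted p = 0.0964), and after removal of each library's trend over transcript length and GC content it was -0.29 (unadjusted p = 0.0785). Leaving out knockout 5 also raised the share of all tested genes with an unadjusted limma p under 0.05 from 6.16% to 16.7%.

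Ryr3, the isoform that adult limb muscle carries at low level, was close to the limit of what this depth can measure. Its gene (ID 20192) lies on the minus strand of chromosome 2, from 112631355 to 113217096. It had 34.3, 45.7, 15.8 and 13.3 normalized counts in knockouts 5 to 8, which rest on 38, 42, 17 and 11 reads. Floxed controls 1 to 4 had 22.5, 24.4, 30.2 and 39.1, from 21, 28, 29 and 44 reads. The knockouts spread on both sides of the controls, with knockout 6 the highest and knockout 8 the lowest of all 8 libraries. The difference was -0.23 (SE 0.404, 95% interval from -1.12 to 0.66, limma adjusted p = 0.897), an interval that covers sizable differences of either sign. Without knockout 8 the difference was 0.042. Exons of Ryr3 overlap those of Aven, a protein-coding gene on the other strand with 186 to 257 normalized counts in knockouts and 209 to 247 in floxed controls. The sources used here do not say whether reads were counted by strand, so Aven reads within the Ryr3 count cannot be told apart from it. Noncoding genes overlap exons of 5 other members on the other strand (Ryr1, Cacna1s, Cacnb1, Jph1 and Casq1), and the highest value of any of those noncoding genes in any library was 22.5 normalized counts.

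The voltage sensor genes did not share 1 pattern. Cacna1s (gene ID 12292; plus strand of chromosome 1, 136052750 to 136119822), which encodes the pore-forming subunit that carries the voltage sensor, had 35007, 25575, 28835 and 24988 normalized counts in knockouts 5 to 8. Floxed controls 1 to 4 had 36641, 32316, 30060 and 34272. As for Ryr1, knockouts 6, 7 and 8 were below every floxed control and knockout 5 was within their range. Having at least 3 of 4 knockouts below every floxed control held for 2 of the 10 members, Ryr1 and Cacna1s, and for 11.1% of all tested genes. The Cacna1s difference was -0.23 (SE 0.122, 95% interval from -0.50 to 0.038, limma adjusted p = 0.746). Without knockout 5 it was -0.33 with an adjusted p of 0.153, and with the length and GC trend removed it was -0.13. As given for Ryr1, 16.7% of all tested genes had an unadjusted limma p under 0.05 without knockout 5.

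Ryr1 and Cacna1s were the members with values below every floxed control in the same 3 knockouts. Their start regions are shown beside that of Casq1, the most abundant member per kb, which in those 3 knockouts was above the floxed control range in 1 and within it in 2. Each region runs from 250 bases before to 50 after the start given by RefSeq in GRCm38.p6, and matches of the E-box CANNTG are in capitals. RefSeq sequences were matched for 5 members (Ryr1, Cacna1s, Cacnb1, Jph2 and Casq1). The Ryr1 region is chr7:29125102-29125401 on the minus strand, that of Cacna1s is chr1:136052561-136052860 on the plus strand, and that of Casq1 is chr1:172219846-172220145 on the minus strand.
Ryr1: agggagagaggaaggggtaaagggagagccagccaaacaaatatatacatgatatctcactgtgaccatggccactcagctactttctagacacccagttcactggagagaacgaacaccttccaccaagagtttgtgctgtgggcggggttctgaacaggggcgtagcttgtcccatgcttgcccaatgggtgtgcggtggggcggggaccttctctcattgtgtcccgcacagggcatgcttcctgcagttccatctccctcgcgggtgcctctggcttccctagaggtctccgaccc
Cacna1s: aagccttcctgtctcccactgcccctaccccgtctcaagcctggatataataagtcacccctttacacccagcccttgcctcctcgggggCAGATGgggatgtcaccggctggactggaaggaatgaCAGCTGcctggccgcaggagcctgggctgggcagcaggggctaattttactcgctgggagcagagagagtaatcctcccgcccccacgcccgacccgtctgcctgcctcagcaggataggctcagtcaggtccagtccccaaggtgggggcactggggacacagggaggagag
Casq1: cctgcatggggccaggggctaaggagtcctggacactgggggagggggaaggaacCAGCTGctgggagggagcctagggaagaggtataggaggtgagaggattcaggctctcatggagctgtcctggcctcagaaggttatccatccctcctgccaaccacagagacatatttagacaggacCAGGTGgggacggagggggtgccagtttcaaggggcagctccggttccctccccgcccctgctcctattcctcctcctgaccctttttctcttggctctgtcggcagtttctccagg
On both strands, with overlapping matches counted, Ryr1 held 0 E-boxes while Cacna1s and Casq1 held 2 each; 72.3% of 32851 start regions of the same length held at least 1. None of the 3 regions matched the TATA box TATAAA (13.6% of all regions), the MEF2 site (3.19%) or the CArG box (1.63%). These are matches of letters in a window of 300 bases and show no binding.

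The partners of the voltage sensor stayed within or near the range of the controls. Cacnb1 (gene ID 12295), the beta subunit that brings the channel to the triad, had 2117, 2465, 2148 and 2443 normalized counts in knockouts 5 to 8, against 2146, 2267, 2174 and 2434 in floxed controls 1 to 4. Its groups overlapped, with 1 knockout just below and 2 just above every floxed control, and the difference of 0.022 (SE 0.0832) had a 95% interval from -0.16 to 0.21. Cacng1 (gene ID 12299), the gamma subunit found in skeletal muscle, had 2992, 3138, 2603 and 3398 in knockouts, against 2789, 4520, 2822 and 3239 in floxed controls. Floxed control 2 stood above all other libraries. The Cacng1 difference was -0.12 (SE 0.148, 95% interval from -0.44 to 0.21), and without floxed control 2 it was 0.037. Stac3 (gene ID 237611), the adaptor needed for coupling, had 2707, 2942, 2833 and 2991 in knockouts, against 2577, 2454, 3095 and 2840 in floxed controls. All 4 knockouts lay inside the floxed control range, with a difference of 0.070 (SE 0.0874, 95% interval from -0.12 to 0.26). Limma adjusted p was 0.959 for Cacnb1, 0.860 for Cacng1 and 0.859 for Stac3.

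**Figure D2:**
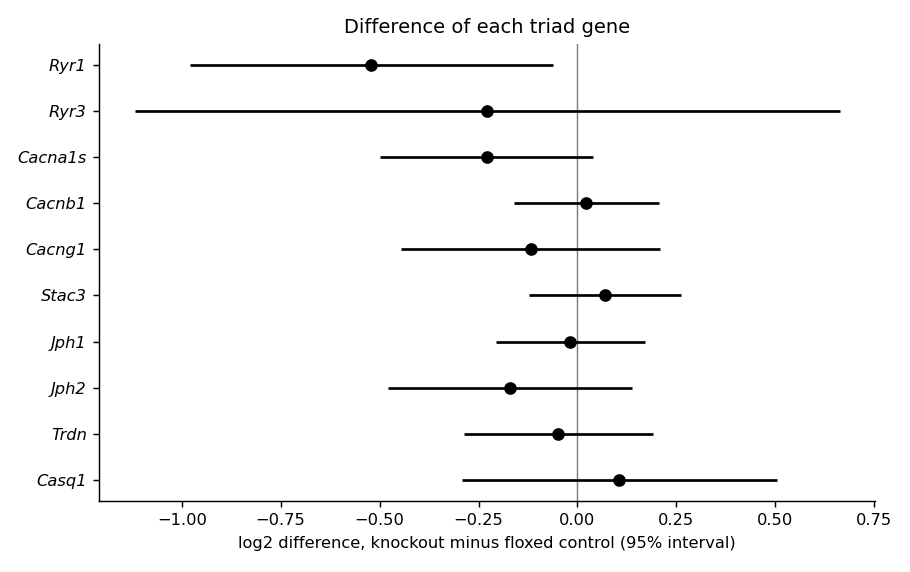
Difference of each triad gene on the log2 scale (x axis, knockout minus floxed control; points are estimates, lines are 95% intervals of the limma fit, 4 libraries per group). The interval of Ryr1, from -0.98 to -0.062, is the only one of the 10 that does not reach 0, and it is not adjusted for the number of genes.

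Luminal genes were abundant, and their groups overlapped. Casq1 (gene ID 12372), the calsequestrin of fast fibres, had 54610, 65258, 39137 and 46546 normalized counts in knockouts 5 to 8, against 54236, 34930, 48459 and 52731 in floxed controls 1 to 4. Knockout 6 was the highest library and floxed control 2 the lowest. The difference was 0.11 (SE 0.18, 95% interval from -0.29 to 0.50, limma adjusted p = 0.891). Leaving out knockout 6 gave -0.018, and leaving out floxed control 2 gave -0.036. Trdn (gene ID 76757), triadin, which anchors calsequestrin at the release channel, had 44563, 51800, 42037 and 53072 in knockouts, against 51357, 50482, 45298 and 50126 in floxed controls. Here 2 knockouts were above and 2 below every floxed control, and the difference was -0.048 (SE 0.109, 95% interval from -0.29 to 0.19, limma adjusted p = 0.926).

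Of the junctophilins, Jph1 varied less over the 8 libraries, by a factor of 1.19 between the highest and the lowest, than Jph2, by a factor of 1.64. Jph1 (gene ID 57339) had 15851, 15040, 13292 and 14403 normalized counts in knockouts 5 to 8, against 14938, 15502, 13604 and 15220 in floxed controls 1 to 4. The groups overlapped, and the difference of -0.018 (SE 0.0855, 95% interval from -0.21 to 0.17, limma adjusted p = 0.969) took the other sign, at 0.024, when every library was scaled to the same total. Jph2 (gene ID 59091), the form shared with heart, had 9540, 8106, 8907 and 8766 in knockouts, against 10442, 7163, 11000 and 11760 in floxed controls. All 4 knockouts lay between floxed control 2 and the other 3 controls. The Jph2 difference was -0.17 (SE 0.14, 95% interval from -0.48 to 0.14, limma adjusted p = 0.804), and it was -0.33 without floxed control 2 (unadjusted p = 0.00507, adjusted p = 0.689), -0.088 without floxed control 4 and -0.030 with the length and GC trend removed.

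Ratios of 2 members within 1 library do not depend on how libraries are scaled to each other, and 7 such ratios were compared. None passed, with Benjamini-Hochberg adjusted p from exact permutation tests between 0.467 and 0.743. Cacna1s stood at 0.139, 0.190, 0.207 and 0.171 normalized counts per normalized count of Ryr1 in knockouts 5 to 8, against 0.160, 0.141, 0.146 and 0.127 in floxed controls 1 to 4. Knockouts 6, 7 and 8 were above every floxed control, and the difference was 0.29 on the log2 scale (exact two-sided permutation p = 0.114, adjusted p = 0.467). In those 3 libraries Ryr1 was thus lower relative to Cacna1s, but the ratio uses the same Ryr1 counts and is no separate support. The longest transcripts measure 15.4 kb for Ryr1 and 6.25 kb for Cacna1s. A trend over transcript length, described below, therefore need not cancel in this ratio as the scaling does. The same 3 knockouts had the highest ratios of Cacnb1 to Cacna1s, from 0.0745 to 0.0978, while knockout 5 was at 0.0605 and floxed controls at 0.0586 to 0.0723 (log2 difference 0.25, exact permutation p = 0.2, adjusted p = 0.467). For Stac3 to Cacna1s the log2 difference was 0.30 (exact permutation p = 0.171, adjusted p = 0.467). The ratio of Jph2 to Jph1 was 0.539 to 0.670 in knockouts and 0.462 to 0.809 in floxed controls, and that of Trdn to Casq1 was 0.794 to 1.14 and 0.935 to 1.45 (exact permutation p = 0.486 and 0.514, adjusted p = 0.72 for both). The ratios of Ryr3 to Ryr1 and of Cacng1 to Cacna1s had an exact permutation p of 0.743 each, which is also their adjusted p.

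Per kb of the longest annotated transcript, the order of levels over the 8 libraries ran from Casq1 to Ryr3. Casq1 had 26794 ± 5164 normalized counts per kb (SD, n = 8), with every library above the highest value of Ryr1. Ryr1 had 13085 ± 3506 and Trdn 10765 ± 894 per kb, and these 2 overlapped, with Ryr1 above Trdn in 5 of 8 libraries. Knockouts 6, 7 and 8 were the libraries in which Trdn exceeded Ryr1. Cacna1s followed at 4953 ± 693 per kb, below every value of Trdn. Jph1 (3063 ± 187), Cacng1 (2552 ± 478) and Jph2 (2247 ± 365) overlapped as neighbours, and Cacng1 was above Jph2 in 4 of 8 libraries. Stac3 stood at 1567 ± 120 per kb, which overlapped the range of Jph2 although it was the lower of the 2 in all 8 libraries. Cacnb1 stood at 670 ± 44.2 per kb, and Ryr3 at 1.82 ± 0.729 was far below all of them. Lengths are those of the longest annotated transcripts, and a shorter isoform in use, as for Trdn with its 8 annotated transcripts, would raise the level per kb.

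**Figure D3:**
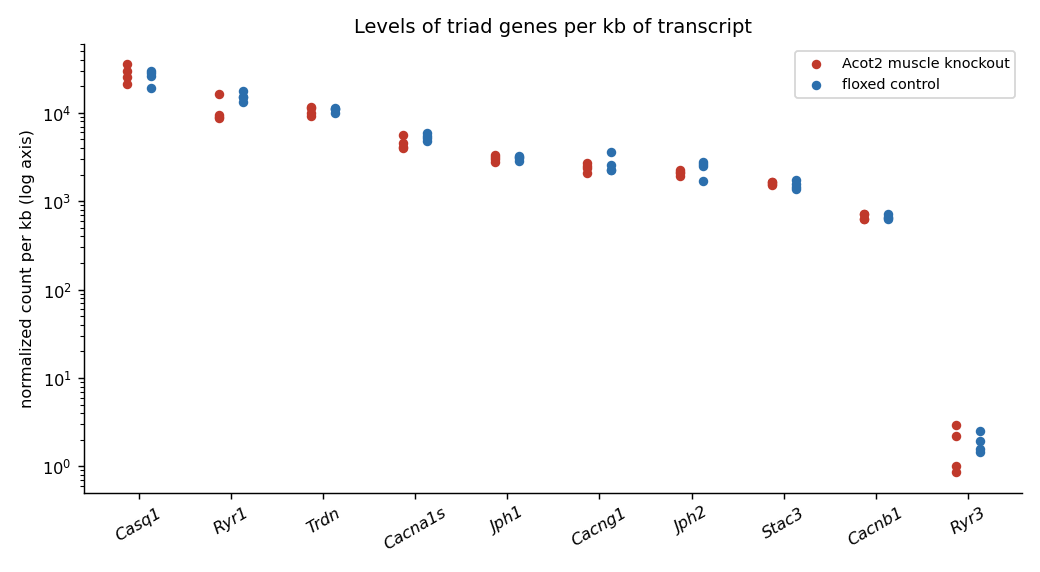
Normalized counts per kb of the longest annotated transcript (y axis, log scale) for each triad gene, with 4 Acot2 muscle knockout libraries (red) left of 4 floxed control libraries (blue). Cacnb1 at 670 and Ryr3 at 1.82 per kb, as means over 8 libraries, are the neighbours with the widest gap.

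The relatives Ryr2, Jph3, Jph4, Stac, Stac2 and Cacna1c were low, and all of them but Cacna1c were below the filter. Other relatives passed it, among them Cacna1d, Cacng6 and Casq2, which are given further below. Ryr2, the heart and brain ryanodine receptor, had 6.31 to 13.3 normalized counts in knockouts and 1.78 to 13.05 in floxed controls. Jph3 and Jph4, junctophilins of neurons, had at most 4.84 and 1.80 in knockouts and at most 1.04 and 2.67 in floxed controls, with no read in 5 of 8 libraries for Jph3 and in 3 of 8 for Jph4. Stac was at 2.18 to 9.01 in knockouts and 5.33 to 8.34 in floxed controls, and Stac2 at 0 to 13.1 and 0 to 1.07. Cacna1c, the pore of the cardiac L-type channel, had 94.5 ± 27.5 in knockouts and 104 ± 16.2 in floxed controls (SD, n = 4 each). By contrast Cacna2d1, the auxiliary subunit of the skeletal channel, had 23825 ± 2445 and 25886 ± 1730 (SD, n = 4 each), and Asph, whose products include junctin, 5022 ± 686 and 4876 ± 529.

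Beyond the 10 members, 5 lists of other triad genes held 49 genes, of which 43 were tested. None passed a limma adjusted p of 0.05, and 28 had higher and 15 lower values in the knockout, with a median difference of 0.069. At an unadjusted p under 0.05 there was 1 with a higher value, Casq2, and 2 with lower values, among them Speg, against 2.47% and 3.7% of all tested genes. Groups did not overlap for 1 of the 43, a junction and transverse tubule gene higher in the knockout, and for 0 with lower values. Over all tested genes these shares were 1.13% and 1.62%. Partners of the release channel had 6 of 9 higher, and those with the smallest p were the calcium-binding protein gene S100a1 at 0.28 (SE 0.152), the calmodulin gene Calm2 at 0.17 (SE 0.138) and the scaffold gene Homer1 at 0.12 (SE 0.124). Partners of the voltage sensor were 5 higher and 5 lower of 10, with Cacng6 at -0.20 (SE 0.132), Cacna1d at -0.46 (SE 0.348) and Cacna2d1 at -0.12 (SE 0.1). Store-operated entry genes had 4 of 5 higher, with the channel genes Orai2 at 0.69 (SE 0.323) and Orai1 at 0.13 (SE 0.131) and the calcium sensor gene Stim2 at 0.13 (SE 0.136). Of these, only Orai2 and Cacna1d rest on fewer than 100 normalized counts per library.

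In the terminal cisterna 5 of 7 other genes had higher values and 2 lower. Casq2, the calsequestrin of heart and slow fibres, had 302, 734, 440 and 346 normalized counts in knockouts 5 to 8, against 289, 253, 345 and 252 in floxed controls 1 to 4. Knockouts 6, 7 and 8 exceeded every floxed control, knockout 8 by little, and knockout 6 stood highest. The difference was 0.60 (SE 0.24, unadjusted p = 0.0293, limma adjusted p = 0.746) and was 0.34 without knockout 6. The summed slow fibre markers, of which 7 of 8 had higher values, were 2199, 2551, 2466 and 1318 in knockouts 5 to 8, against 1930, 1264, 1729 and 1504 in floxed controls 1 to 4. Their part in the Casq2 values was not tested. Hrc, a luminal calcium-binding protein gene, differed by -0.11 (SE 0.0762) and Jsrp1, which binds the voltage sensor and calsequestrin, by 0.10 (SE 0.0929).

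At the junction and transverse tubule, Speg had the same arrangement of libraries as Ryr1. Speg, a kinase gene whose product binds triad proteins, had 10754, 7283, 8063 and 8450 normalized counts in knockouts 5 to 8, against 10923, 13399, 10339 and 13250 in floxed controls 1 to 4. Knockouts 6, 7 and 8 were below every floxed control, and knockout 5 was within their range, above floxed control 3 only. At least 3 of 4 knockouts were below every floxed control for 11.1% of all tested genes. The difference was -0.48 (SE 0.131, unadjusted p = 0.00392) with a limma adjusted p of 0.746, and with the length and GC trend removed it was -0.22 (unadjusted p = 0.0754). Of the 12 tested genes of this list other than members, 8 had higher values, among them the caveolin gene Cav3 at 0.29 (SE 0.141).

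**Figure D4:**
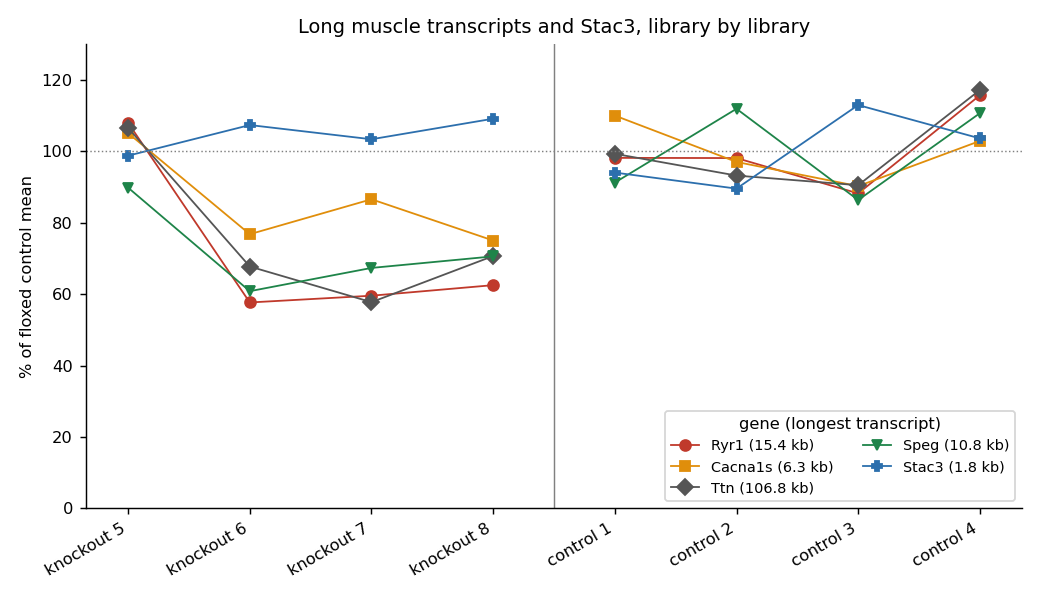
Levels of Ryr1, Cacna1s, Ttn, Speg and Stac3 in each library as a percentage of the floxed control mean (y axis, from 0; x axis, knockouts 5 to 8 left of floxed controls 1 to 4). Ryr1 stands at 57.6%, 59.5% and 62.5% in knockouts 6, 7 and 8 and at 108% in knockout 5, beside Ttn at 67.7%, 57.7%, 70.6% and 106%, while Stac3 stays between 89.5% and 113%.

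Genes outside the 10 members also had library values close to those of Ryr1. Among the 5 tested genes other than members whose centred log2 values lay closest to those of Ryr1 over the 8 libraries were Spen, Kmt2b, Plec and Nfix. Their root mean square distances to Ryr1 were 0.0387, 0.0498, 0.0956 and 0.0974, against 0.227 for Cacna1s, with 360 genes closer than it, and a median of 0.457 over all tested genes. Spen encodes a transcriptional corepressor, Kmt2b a histone methyltransferase, Plec the cytolinker plectin and Nfix a transcription factor. Their longest transcripts measure 12.3, 8.47, 15.5 and 5.48 kb in the order of their distances, against a median of 3.39 kb over all tested genes. Their GC content is 57.6%, 59.1%, 61.3% and 57.1%, against 58.0% for Ryr1 and a median of 49.4% over all tested genes.

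Differences ran with transcript length over the whole transcriptome. Of 332 tested genes with a transcript of 10 kb or more, 228 had lower values in the knockout and the median difference was -0.11. Among 2725 genes of 5 to 10 kb the median was -0.054, among 7159 of 2 to 5 kb it was 0.0064, and among 2878 under 2 kb it was 0.073. Ryr1 was 1 of 14 genes among those 332 (4.22%) with a difference of -0.52 or lower, against 2.78% of all tested genes. The members follow the same order in part, since Ryr1, Ryr3 and Cacna1s are the 3 longest and had the 3 lowest differences. Cacng1, the shortest at 1.25 kb, had a difference of -0.12. With the trend over length and GC content removed, Ryr1, Ryr3 and Cacna1s kept a negative sign at -0.29, -0.085 and -0.13, none of them at an unadjusted p under 0.05. What sets the length trend was not tested.

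**Figure D5:**
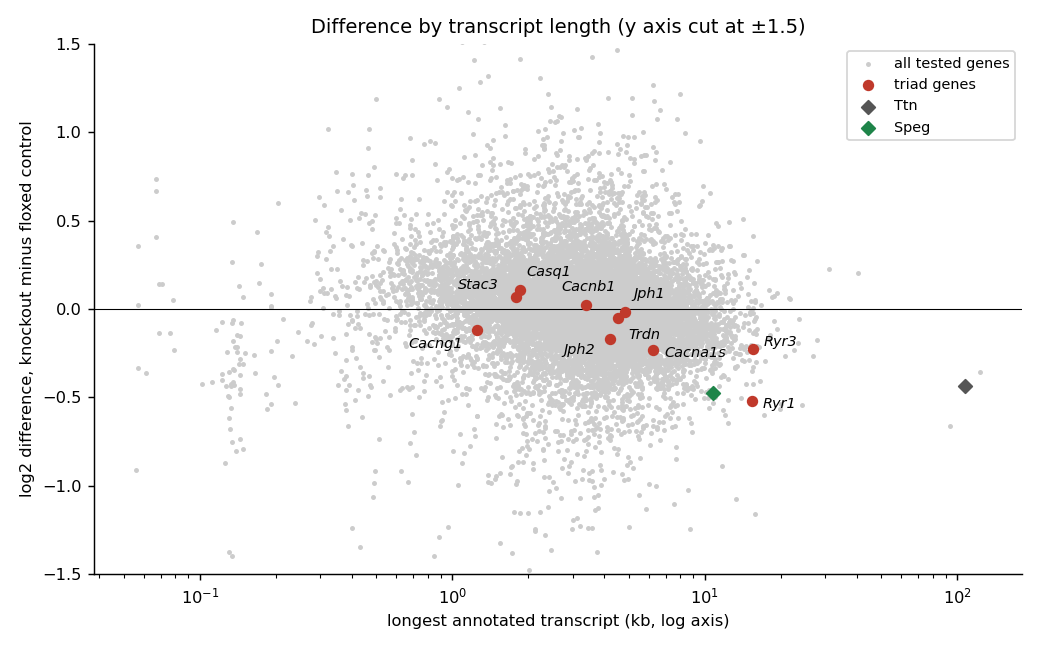
Log2 difference (y axis, knockout minus floxed control, values beyond the axis range not drawn) against the longest annotated transcript in kb (x axis, log scale) for all tested genes (grey), the 10 triad genes (red) and Ttn and Speg (diamonds). Ryr1, Speg and Ttn lie at -0.52, -0.48 and -0.43 on the long side, while triad genes under 5 kb lie between -0.17 and 0.11.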

How the data were processed

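RNA-seq was measured in white quadriceps of 4 Acot2 muscle knockout and 4 floxed control mice, grouped by the genotype label; each title carries its own mouse number, so libraries were taken as separate animals. Per the labels' protocols, libraries were made with a TruSeq stranded kit. Trimming, quality control, alignment, counting and normalization tools (cutadapt, FastQC, STAR, HTSeq, DESeq2) and the build GRCm38 come from the submitters' processing notes, and versions, the annotation, the strand setting and any filter were not stated there. The deposited values are log2(n + 1), with n the reads of a gene over the size factor of its library. The values themselves show this, since 2 to the power of a value, minus 1, gave whole multiples of 1 step per library, with 100% of values up to 200 reads within 0.1 read of a whole number. They are not scaled for gene length. Columns were matched to libraries by mouse number.

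The 13141 genes averaging 10 or more normalized counts were fitted with limma 3.58.1 in R 4.3.3 (lmFit, eBayes with trend) on the deposited log2 values with their pseudocount of 1, and p-values were adjusted by Benjamini-Hochberg over all of them. Ratios within a library and Acot2 were compared by exact two-sided permutation over 70 assignments. Levels per kb and positions used the longest transcript of each gene in GENCODE M21 (GRCm38). The most alike pair of libraries, knockout 5 and floxed control 4, still had a chi-square of 19.99 per degree of freedom, so none was treated as a duplicate. By this measure knockout 5 was nearer to all 4 floxed controls (19.99 to 37.66) than to knockouts 8, 6 and 7 (85.05, 114.9 and 147). The measure is computed on read counts, so the most abundant transcripts, such as Ttn and Myh4, weigh most in it. It was not repeated without them. Pseudocount, filter, scaling, voom, robust fit, mouse number range, length and GC trend and left-out libraries were varied, and a block by the number in the column headers was added after the data were seen. Tested on simulated data with independent noise for each gene, the limma fit gave median differences close to those put in. It called only 33.1% of 1.5-fold changes. The simulation lacked the length trend that the genes of these libraries share, so it does not give the chance of calling Ryr1. The members and lists were chosen with earlier results of these data known. Named are the members, their relatives, 3 genes of smallest p per list, the 5 genes nearest to Ryr1 and library values, except 1 gene that is not reported here; Aven was chosen after its values were seen.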

Additional observations from a re-analysis of the deposited data

Results flagged for a closer look

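In 3 groups of 4 libraries, 1 library stood apart from the other 3 by a gap, relative to the group's range, above the 95% critical value of Dixon's test; of 36 groups examined, chance gives about 1 in 20. Ryr1 in knockout 5 had 252337 normalized counts, against 134775 to 146109 in the other 3 knockouts. The ratio of Cacnb1 to Cacna1s was lowest in floxed control 1, at 0.0586, with the other floxed controls at 0.0702 to 0.0723. The ratio of Trdn to Casq1 was highest in floxed control 2, at 1.45, with the others at 0.935 to 0.951. Knockout 5 also had the largest Ttn share of the knockouts, at 13.9%, and floxed control 2 had the lowest Casq1 of all libraries, at 34930; their part in these values was not tested.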

How the results depend on the processing

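The titles number the mice through both groups, but the column headers number each group 1 to 4. Deviations of same-numbered libraries had correlations of -0.0531, 0.1, 0.281 and -0.162 for numbers 1 to 4 over the tested genes. Libraries of different number had -0.183 to 0.401. Knockouts 6 and 7 correlated best with the floxed control of their own number and knockouts 5 and 8 did not, so the numbers were not taken as pairs. With that number as a replicate block, chosen after seeing the data, 0 members passed an adjusted p of 0.05 and 1, Ryr1, had an unadjusted p under 0.05 (0.0329), or 0 with the length and GC trend also removed. Of all tested genes, 7.08% had an unadjusted limma p under 0.05 with the block and 6.38% with the trend also removed. The smallest permutation p within such blocks is 0.125, which Acot2 had (differences -2.30 and -2.34). Over 20 alternatives 0 members passed an adjusted p of 0.05, and 11 of 199 alternative member values changed sign. Members at an unadjusted p under 0.05, 1 as reported, were 0 with the length and GC trend removed, 2 without both floxed control 4 and knockout 5, and 0 to 2 over the single libraries left out: 2 without knockout 5, and 0 without knockouts 6, 7 or 8 or floxed controls 1 or 4. Over all tested genes 6.16% reached that level as reported, 5.38% with the trend removed, 11.5% without both libraries and 16.7% without knockout 5. The share was 3.21%, 5.01% and 3.47% without knockouts 6, 7 and 8, and 3.94% and 2.79% without floxed controls 1 and 4. Without floxed control 2 the 1 member was Jph2 (limma unadjusted p = 0.00507) in place of Ryr1 (0.0516), and the share was 6.56%. Differences changed sign for Ryr3 without knockout 8 (0.042; left-out range -0.53 to 0.042), Cacnb1 without knockout 6 (-0.014), knockout 8 (-0.0094) or floxed control 1 (-0.00094; up to 0.060 with 1 library left out and 0.097 without both), and Cacng1 without floxed control 2 (0.037; range from -0.20). The same held for Jph1 with equal totals (0.024), without knockout 7 (0.028) or floxed control 2 (0.0046; range from -0.058), Trdn without knockout 7 (0.012; range from -0.10), and Casq1 without knockout 6 (-0.018) or floxed control 2 (-0.036; range up to 0.23). Of other genes, Asph changed sign without knockout 6 (-0.014), knockout 8 (-0.017) or floxed control 1 (-0.011; range up to 0.13), and Myh4 without knockout 7 (0.039; range from -0.26). Myh2, at -0.0090, was 0.032 with equal totals, 0.0068 with equal upper quartiles and 0.080 with the length and GC trend removed, with or without the block, and 0.11, 0.39 and 0.37 without knockouts 5, 6 and 8 and 0.33 without floxed control 1 or 3 (-0.91 without knockout 7). The log2 ratio of Ryr3 to Ryr1, 0.28, was -0.12 without knockout 6 (range up to 0.51), and that of Cacng1 to Cacna1s, 0.11, was -0.050 with the trend removed, with or without the block, -0.0058 without knockout 8 and -0.013 without floxed control 1. The Acot2 difference ranged from -2.49 to -2.03 with 1 library left out, and its permutation p was 0.05 with mouse number range as a covariate (difference -2.30) and 0.1 without both floxed control 4 and knockout 5 (-2.44), the smallest these designs allow. The member median ranged from -0.109 to -0.012. Causes were not tested; 11 to 44 reads limit Ryr3.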
